A study of Homo sapiens with 2 samples.

Results

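The 44 genes described here carry out or control mitosis. They were taken by name, as genes known for their part in cell division, from 19775 genes that had a probe set of their own on the array, and were placed in 5 groups by role. Together they had 89 probe sets, each annotated to a single gene. Where a gene had several, the brightest by mean log2 signal was its main probe set, passing over those ending in _x_at if another existed. A probe set was eligible when at least its brighter signal reached the array median, and a gene with an eligible main probe set counted as measured, which held for all 44.

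Mitosis begins when CDK1, bound to cyclin B, phosphorylates many proteins of the nucleus and the cytoskeleton. The chromosomes then attach through kinetochores to a spindle of microtubules, kinesin motors move and sort these microtubules, and the spindle checkpoint holds the anaphase-promoting complex (APC/C) back until every chromosome is attached. The APC/C with CDC20 then marks securin and cyclin B for destruction, separase cuts cohesin, and the cell divides at the midzone. Most of the genes are transcribed late in the cycle, under the DREAM complex and the factors B-MYB and FOXM1, which act through a short promoter sequence called the CHR (cell cycle genes homology region). Their transcripts are therefore widely used as a sign of dividing cells, and leukaemia lines hold many such cells.

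MEG-01 is a megakaryoblastic line from chronic myeloid leukaemia (CML). The cells received a control lentivirus for the fluorescent protein Venus (Venus) or one that also encodes a GAS2 lacking its C-terminal part, which acts as a dominant negative (GAS2DN), both driven by the spleen focus forming virus promoter. Both populations were grown in RPMI1640 with serum and purified by fluorescence sorting, so neither is a single clone. For each condition equal amounts of RNA from 3 extracts were combined and read on 1 Affymetrix U133 Plus 2.0 chip. No condition was repeated, so the differences below carry no test. The comparison asks which transcripts differ in level with GAS2DN.

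The values were log2 MAS5 signals, a robust average of brightness over the probes of a probe set, and were turned into linear signals. The median over all probe sets was 55.6 in Venus and 69.1 in GAS2DN cells. Of 8 megakaryocytic markers with a probe set of their own 6 were measured, among them ITGA2B, the platelet integrin chain, with 7149 in Venus and 9238 in GAS2DN cells, and GATA1 with 1617 and 1516, while the platelet chemokines PF4 and PPBP lay below the median on both arrays. No fibroblast marker of 6 reached the median on both arrays, and 2 of 5 lymphocyte and 2 of 4 monocyte markers did. The summed signals were 15676 and 17991 for megakaryocytic, 209 and 248 for fibroblast, 306 and 425 for lymphocyte and 396 and 374 for monocyte markers in Venus and GAS2DN cells. No marker with a probe set had a signal of 0, and the part of these cells in the results was not tested. GAS2 itself had signals of 24.3 and 34.7, both below the median, and where its probe set lies relative to the truncation is not given in the sources used here.

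The signals of mitosis genes were nearly the same in both cell populations. The median log2 ratio of GAS2DN to Venus over the 44 genes was -0.03, with quartiles of -0.22 and 0.08, against a median of 0.06 and quartiles of -0.20 and 0.31 over all 13086 measured genes. In 33 of the 44 the signals were within 1.2-fold of each other, compared with 50.7% of all measured genes. A log2 ratio below 0 was found in 24 of the 44, against a background of 43.8%. The genes over 1.5-fold lower in GAS2DN cells were NEK2, MAD2L1 and CCNA2, so 3 of 44 where 9.12% of all measured genes were that low, and no gene was over 1.5-fold higher where 14.3% were. None was over 3-fold in either direction, the threshold of the study, where 6.87% were.

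Most of the background comes from dim genes, whose ratios scatter widely. In 42 of the 44 both signals reached percentile 75 of their arrays, 379 for Venus and 383 for GAS2DN, and the exceptions were PLK1 and UBE2C. Among the 7433 genes with signals this bright, 3.55% were over 1.5-fold lower, against 3 of the 42 mitosis genes. Over 1.5-fold higher were 1.74% of the 7433 and over 3-fold in either direction 0.121%, and none of the 42 was either. Within 1.2-fold were 69.7% of the 7433 and 33 of the 42 mitosis genes, and below 0 were 46.5% and 24 of 42. The median log2 ratio of the 7433 was 0.02 and that of the 42 mitosis genes -0.03, and the SD between genes was 0.30 in all and 0.26 in the mitosis genes. Read against all genes past this threshold, then, the spread among mitosis genes was much the same. The 7433 genes were not matched to the 42 in brightness beyond the threshold. The lowest main signal among the 42 was 719, that of CDC25C in GAS2DN cells. The median log2 ratio of the mitosis genes minus that of all measured genes was -0.08, and it stayed between -0.12 and -0.05 under each of 11 other ways of processing. RNA was taken from whole populations, so a difference in the share of cells in mitosis and one in RNA per cell cannot be told apart.

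**Figure D1:**
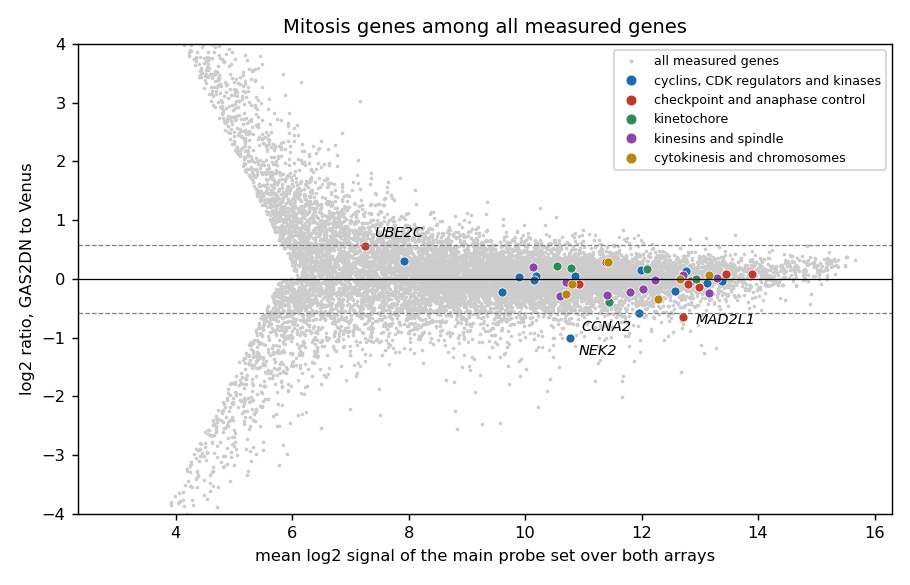
Log2 ratio of GAS2DN to Venus signal against mean log2 signal of the main probe set, for all 13086 measured genes (grey) and the 44 mitosis genes (coloured by role), with dashed lines at 1.5-fold and 107 genes outside the plotted range. The mitosis genes lie mostly at the bright end, with NEK2, MAD2L1 and CCNA2 below the lower dashed line and UBE2C just inside the upper one.

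The promoters of these genes carry sequence features that the choice of genes did not use, and they are shown because the genes are known to be controlled together through them. RefSeq promoter windows on GRCh38.p14, from 250 bases before to 50 bases after an annotated start, were found for 36 of the 44 genes, 49 windows in all because some genes have several starts. Windows of AURKA, BIRC5, FOXM1, BUB3, TTK, UBE2C, TPX2 and RACGAP1 were not analysed here. A CHR element was searched as TTTGAA or TTTAAA and a CCAAT box, the site of the factor NF-Y, as CCAAT, each on both strands. Matches of different motifs overlapped 1 time. A CHR element was found in 35 of the 49 windows (71.4%) and in 24.0% of all 35116 windows. The form TTTGAA alone was in 28 of the 49 (57.1%) and in 15.2% of all windows, and TTTAAA in 14 (28.6%) and 12.2%. A CCAAT box was in 34 of the 49 (69.4%) and in 34.6% of all, and both kinds of motif were in 26 (53.1%) and in 9.27% of all.

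The 120 bases before the start are printed here, 5′ to 3′ on the gene's strand, with every match in capitals (ATTGG is CCAAT read on the other strand). CCNB1, CCNB2, CDC20 and PLK1 are shown as genes that held both motifs and were within 1.5-fold, at chr5:69167030-69167149, chr15:59105026-59105145, chr1:43358861-43358980 and chr16:23678769-23678888, all on the + strand.
CCNB1: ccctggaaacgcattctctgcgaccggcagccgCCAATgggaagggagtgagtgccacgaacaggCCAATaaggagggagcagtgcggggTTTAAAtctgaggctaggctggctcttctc
CCNB2: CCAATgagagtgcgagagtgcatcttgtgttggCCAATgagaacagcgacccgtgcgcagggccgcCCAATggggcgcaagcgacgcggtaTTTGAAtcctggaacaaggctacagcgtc
CDC20: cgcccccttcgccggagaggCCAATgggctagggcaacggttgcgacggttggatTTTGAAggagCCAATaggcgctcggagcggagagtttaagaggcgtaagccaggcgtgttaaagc
PLK1: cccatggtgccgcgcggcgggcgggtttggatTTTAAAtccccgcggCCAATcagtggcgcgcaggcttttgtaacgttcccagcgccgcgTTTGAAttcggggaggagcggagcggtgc
The same stretch follows for NEK2, MAD2L1 and CCNA2, the genes over 1.5-fold lower, at chr1:211675622-211675741, chr4:120066849-120066968 and chr4:121823884-121824003, all on the - strand.
NEK2: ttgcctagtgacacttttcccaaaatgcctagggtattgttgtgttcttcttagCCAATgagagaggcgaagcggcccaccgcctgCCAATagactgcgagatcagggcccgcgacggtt
MAD2L1: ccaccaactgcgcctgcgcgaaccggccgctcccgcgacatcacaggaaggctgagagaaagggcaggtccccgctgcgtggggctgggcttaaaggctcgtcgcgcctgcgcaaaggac
CCNA2: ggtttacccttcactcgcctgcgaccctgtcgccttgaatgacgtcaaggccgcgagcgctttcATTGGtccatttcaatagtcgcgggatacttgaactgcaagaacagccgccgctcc

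In the stretch of CCNB2 the CHR element began 29 bases before the start, and CCAAT boxes began 120, 87 and 54 bases before it. CCNB1 had a similar spacing, with its CHR element at 30 and CCAAT boxes at 87 and 55 bases. CDC20 had a CHR element at 65 and CCAAT boxes at 100 and 55 bases, and PLK1 had CHR elements at 29 and 88 and a CCAAT box at 73. NEK2 had CCAAT boxes at 66 and 34 bases and CCNA2 a CCAAT box at 56 bases before the start. Neither held either searched form of the CHR in its window, and other forms of the CHR were not searched. MAD2L1 had no match within these 120 bases, though its whole window held a CCAAT box 229 bases before the start and a TTTGAA after it. Of all 64 CCAAT matches in the 49 windows 43 began 40 to 120 bases before the start. Of 55 CHR matches 24 began 1 to 60 bases before it. Where windows of a gene overlap, as in PTTG1, the same site is counted more than once. Positions were not counted over the windows of all genes, so no background stands beside these counts.

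**Figure D2:**
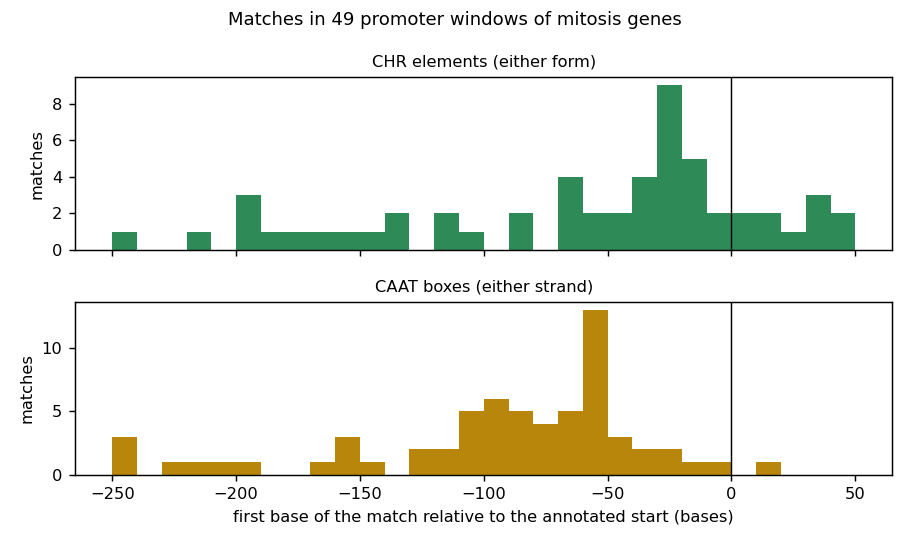
Number of CHR matches (upper) and CCAAT box matches (lower) in bins of 10 bases, by the distance of the first base of the match from the annotated start at 0, over 49 promoter windows of mitosis genes. The fullest CHR bin, with 9 matches, covers 30 to 20 bases before the start, and the fullest CCAAT bin, with 13, covers 60 to 50 bases before it. Overlapping windows of a gene can count a site more than once, and positions in the windows of other genes were not counted.

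The array ratios of genes with and without a motif covered overlapping ranges. The 30 genes with either searched form of the CHR in any window had a median log2 ratio of -0.04, from -0.65 to 0.31. The 6 genes without either searched form had -0.02, from -1.01 to 0.21, and may hold other forms. Besides NEK2 and CCNA2, those without were BUB1, CKAP2, AURKB and TACC3, with log2 ratios of -0.03, -0.01, 0.04 and 0.21. The 28 genes with a CCAAT box had a median of -0.02, from -1.01 to 0.31, and the 8 without had -0.17, from -0.39 to 0.21. The lowest and the highest of these genes, NEK2 and PLK1, both held a CCAAT box.

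The cyclins, CDK regulators and kinases, 13 genes, had a median log2 ratio of -0.02, and 7 of the 13 were below 0. The driver of mitotic entry differed little: CDK1, the mitotic kinase, had signals of 10833 in Venus and 10581 in GAS2DN cells, CCNB1 (cyclin B1) 6649 and 7333, and CCNB2 (cyclin B2) 9160 and 8765. Their log2 ratios were -0.03, 0.14 and -0.06. CDC25B and CDC25C, the phosphatases that switch CDK1 on, had 0.05 and -0.23. FOXM1, the transcription factor of the G2/M genes, had 1142 and 1128.

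NEK2, a kinase that separates the centrosomes before the spindle forms, had a signal of 2476 in Venus and 1225 in GAS2DN cells, a log2 ratio of -1.01 and the lowest of the 44. Its other probe set, 211080_s_at, went from 418 to 371, a log2 ratio of -0.17. Both probe sets were lower in GAS2DN cells, but by very different amounts. CCNA2, cyclin A2, which drives S phase and entry into mitosis, had 4892 and 3254 in 213226_at, a log2 ratio of -0.59, just past 1.5-fold and, under loess, quantile normalization or an added array median, just short of it at -0.58, -0.57 and -0.57. The second probe set of CCNA2 was 203418_at, with 2451 and 2194. Again both were lower, and the second only slightly.

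Among the aurora and polo kinases, AURKA, which builds the spindle poles, had 3850 in Venus and 4266 in GAS2DN cells by its main probe set but 3524 and 3224 by the next, so the probe sets lay on either side of equal signals. AURKB, which corrects faulty attachments as part of the chromosomal passenger complex, had 1825 and 1882. BIRC5 (survivin), of the same complex, had 6552 and 5687, with a log2 ratio of -0.20. PLK1, a kinase needed from entry to cytokinesis, was read by 1 probe set with 217 and 270, a log2 ratio of 0.31 and the highest of the group. PLK4, the kinase that starts centriole duplication, had 941 and 963 in its main probe set, but 1064 and 580 in 204886_at, a log2 ratio of -0.87, and 79.0 and 49.9 in 211088_s_at. The choice of probe set therefore decides whether PLK4 reads as equal or as over 1.5-fold lower.

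**Figure D3:**
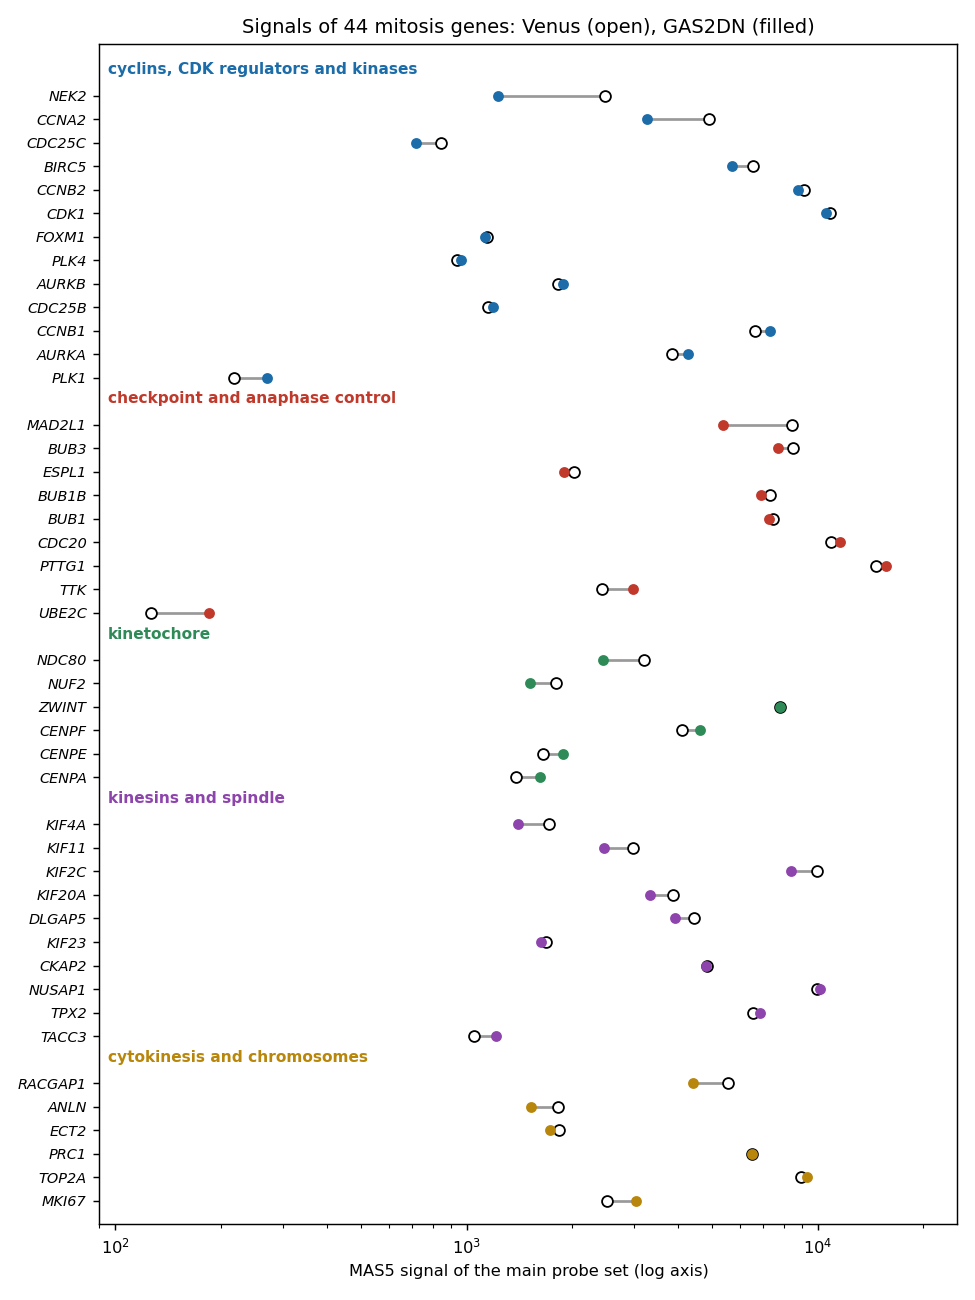
MAS5 signal of the main probe set (log axis) of each of the 44 mitosis genes on the Venus array (open circles) and the GAS2DN array (filled circles), grouped by role and ordered by log2 ratio within a group. The circles of most genes nearly coincide, and the longest bars belong to NEK2, MAD2L1, CCNA2 and, to the right, UBE2C.

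The genes of the spindle checkpoint and of anaphase control, 9 in all, had a median log2 ratio of -0.03, with 5 below 0. MAD2L1, the MAD2 protein that binds CDC20 while chromosomes are unattached, had 8424 in Venus and 5356 in GAS2DN cells in 203362_s_at, a log2 ratio of -0.65. Its second probe set, 1554768_a_at, had 4822 and 4842, and the third, 236312_at, had 511 and 351, a log2 ratio of -0.54. The readings thus split, with 2 probe sets lower and 1 equal. The partners of MAD2 in the checkpoint stood close to equality, with BUB1 at 7438 and 7267, BUB1B at 7318 and 6886, and BUB3 at 8521 and 7707. TTK (MPS1), the kinase that starts the checkpoint signal, was higher in GAS2DN cells, with 2435 and 2977 and a log2 ratio of 0.29.

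CDC20, the activator of the APC/C that the checkpoint holds back, had 10945 and 11558. PTTG1 (securin) had 14701 and 15637, and ESPL1, the separase that securin inhibits, had 2017 and 1898. These genes of anaphase onset had log2 ratios between -0.09 and 0.09. UBE2C, the ubiquitin-conjugating enzyme of the APC/C, had 126 and 185, a log2 ratio of 0.55. It was the highest of the 44 and the nearest to 1.5-fold on the inner side, with both signals below percentile 75, where ratios scatter more.

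The 6 kinetochore genes had a median log2 ratio of 0.09, with 4 above 0, and the sign of this median turned to -0.03 when all ratios were centred. NDC80, the arm that holds the microtubule, had 3193 and 2443, a log2 ratio of -0.39. NUF2, its partner in the same complex, had 1803 and 1515, a log2 ratio of -0.25. Both were lower, and SPC25 and SPC24, the other subunits of the complex, picked after their values were seen, had 3871 and 3217 and 1580 and 1502. The other kinetochore genes were equal or slightly higher. CENPA, the histone variant that marks the centromere, had 1385 and 1619, CENPE, a kinesin of the kinetochore, 1654 and 1882, and CENPF, a large protein of the outer kinetochore, 4099 and 4630, with log2 ratios of 0.23, 0.19 and 0.18. ZWINT, which recruits the checkpoint protein ZW10, had 7794 and 7799.

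The 10 genes of kinesins and spindle had a median of -0.11, with 7 below 0 and the lowest gene at -0.29, and the median turned to 0.08 by the second-brightest probe set, which 4 of the 10 have. All 5 kinesins of the group were lower in GAS2DN cells by the main probe set, where 46.5% of all genes bright on both arrays were below 0. Kinesins outside the group went both ways. CENPE, placed with the kinetochore genes, was higher, as were KIF14, KIF18A, KIFC1 and KIF20B outside the 44. KIF15, KIF18B, KIF22 and KIF2A, also outside the 44, were lower. KIF4A, a chromosome-bound motor, had 1713 and 1399, and KIF11 (Eg5), which pushes the spindle poles apart, had 2982 and 2458, with log2 ratios of -0.29 and -0.28. KIF2C, which depolymerises microtubules at the centromere, had 9958 and 8384, KIF20A 3875 and 3328 and KIF23 1688 and 1628. The second probe set of KIF2C had 3816 and 3859, and that of KIF23 had 90.8 and 113, so neither gene was lower in both of its probe sets. KIF4A, KIF11 and KIF20A had 1 probe set each, so no second reading of them was available. By contrast, the microtubule-binding TPX2, activator of AURKA, had 6546 and 6854, and TACC3, which crosslinks spindle fibres, had 1050 and 1215, a log2 ratio of 0.21. NUSAP1 had 0.02, CKAP2 -0.01 and DLGAP5 -0.17.

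The 6 genes of cytokinesis and chromosomes had a median of -0.04, with 3 on each side of 0. RACGAP1, which with KIF23 forms the centralspindlin complex of the midzone, had 5566 and 4415, a log2 ratio of -0.33. ANLN (anillin), the scaffold of the contractile ring, had 1825 and 1525, a log2 ratio of -0.26, and -0.04 in its other probe set. ECT2, the exchange factor that turns on RhoA at the midzone, had 1838 and 1731, and PRC1, which bundles midzone microtubules, had 6483 and 6493. On the other side were TOP2A, the topoisomerase that untangles sister chromatids, with 8939 and 9323, and MKI67, the Ki-67 antigen that coats mitotic chromosomes. MKI67 had 2507 and 3043, a log2 ratio of 0.28, and all its 4 probe sets and all 3 of TOP2A were higher in GAS2DN cells. For MKI67, 212023_s_at had 443 and 701, a log2 ratio of 0.66, and 212020_s_at had 221 and 374, a log2 ratio of 0.76. The remaining MKI67 probe set, 212021_s_at, had 0.09. The choice of probe set therefore decides whether MKI67 reads as within 1.5-fold or as over 1.5-fold higher.

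With no replicate arrays, the probe sets of a gene were the one repeated reading. They read the same RNA pools on the same arrays, so their agreement does not stand in for replicate samples. Of the 44 genes 22 had at least 2 eligible probe sets, and in 10 of the 22 all of these lay on one side of 0, 6 lower and 4 higher. Over all genes with as many probe sets the background was 39.4%. The lower ones were CCNA2, CDC25C, NEK2, CKAP2, ECT2 and ANLN, and the higher ones CENPF, NUSAP1, TOP2A and MKI67. Among probe sets with both signals at or above percentile 75, 7 of 15 mitosis genes were of one sign, against 46.1%, and the SD between probe sets of 1 gene was 0.25 in mitosis genes and 0.29 in all genes.

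In CCNB2, BUB1 and ECT2, the probe set farthest from the main one had a signal below the array median. In CCNB2, 232768_at went from 24.4 to 123, a log2 ratio of 2.34, and 232764_at from 52.2 to 100.1, whereas the main probe set was near equality. In ECT2, 234992_x_at went from 80.3 to 7.86, a log2 ratio of -3.35. These are 2 eligible probe sets over 3-fold among 80 of the mitosis genes, where 8.31% of all eligible probe sets were over 3-fold. Neither was over 3-fold once signals below an array median were raised to it, with log2 ratios of 1.15 and -0.22 for 232768_at and 234992_x_at. In BUB1, 216275_at went from 31.2 to 84.9 and 215509_s_at from 221 to 262. In BIRC5, 3 probe sets lay between -0.20 and -0.06 and the other, 1555826_at, had 109 and 172. FOXM1, PTTG1 and CENPA could be read only by a probe set ending in _x_at, a name given to probe sets that may also bind other transcripts.

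**Figure D4:**
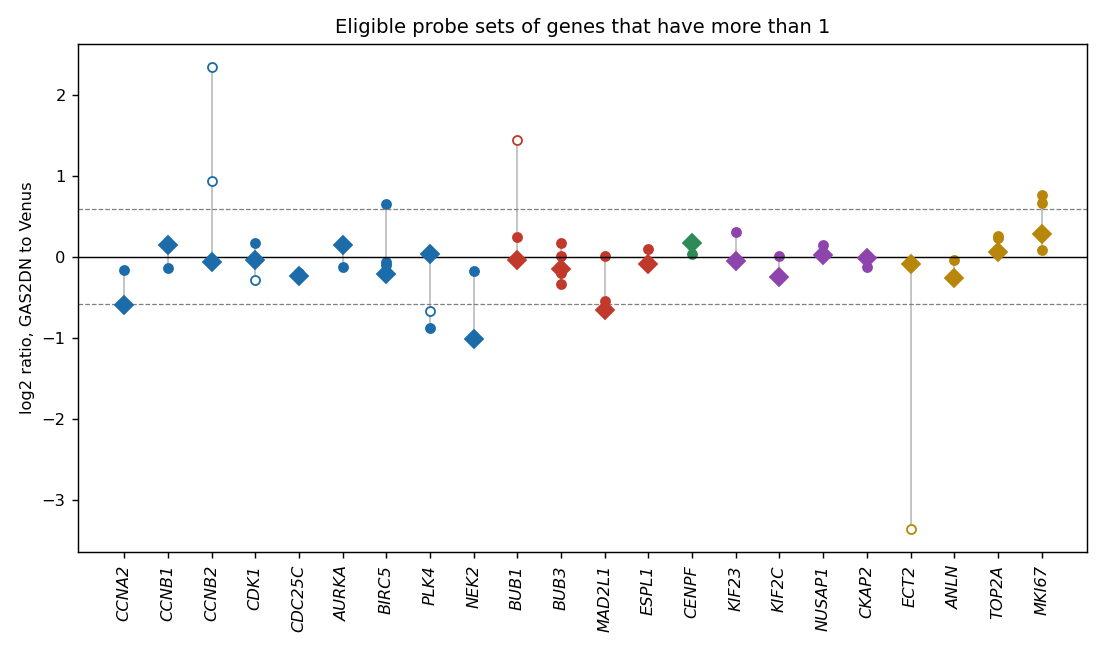
Log2 ratio of GAS2DN to Venus signal of every eligible probe set of the 22 mitosis genes with at least 2, with the main probe set as a diamond, the others as circles, and open symbols where at least 1 signal was below its array's median. Dashed lines mark 1.5-fold, and the open circles of CCNB2, BUB1 and ECT2 lie far from the diamonds, at 2.34, 1.44 and -3.35.

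The other genes of mitosis, a list of 104 of which 101 were measured, were also mostly close to equal signals. Their median log2 ratio was -0.06, with 66 of 101 (65.3%) below 0, where 43.8% of all measured genes and 46.5% of the bright ones were. Over 1.5-fold lower were 6 and over 1.5-fold higher 2, where 9.12% and 14.3% of all measured genes were. Those 2 were LIN9 and KIF20B. Among the 92 with both signals at or above percentile 75, 4 were over 1.5-fold lower and 1 higher, where 3.55% and 1.74% of all genes this bright were. In the list, 10 of 11 cohesin genes were below 0, with a median of -0.17, as were 7 of 8 condensin genes, with a median of -0.08 that turned to 0.06 by the second-brightest probe set. Kinetochore and checkpoint genes had 19 of 26 below 0 and a median of -0.17, motors and spindle genes 11 of 19 and -0.12, the APC/C 8 of 14 and -0.03 (0.04 by the second-brightest probe set), and cytokinesis genes 6 of 7 and -0.27. Genes of mitotic entry and the DREAM complex had 5 of 16 below 0 and a median of 0.08. It turned to -0.04 when all ratios were centred or by the median over eligible probe sets. By the second-brightest probe set, which 7 of the 16 have, it was -0.17. MYBL2, which encodes B-MYB, had 1631 and 1573.

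The lowest of these was SMC3, one of the long arms of the cohesin ring. Its signal was 3346 in Venus and 1879 in GAS2DN cells and its log2 ratio -0.83, with -0.50 and -0.12 in its next probe sets. All its eligible probe sets were lower. NCAPG2, a condensin II subunit, had 1924 and 1180, a log2 ratio of -0.71, in its single probe set. NCAPH2, of the same complex, had 319 and 197, a log2 ratio of -0.69, but its other 4 eligible probe sets ranged from -3.68 to 1.05. The highest were LIN9 and LIN54, subunits of DREAM, and KIF20B, a kinesin of cytokinesis. KIF20B had 1099 and 1651, a log2 ratio of 0.59, with -2.59 in a dim probe set. LIN9 had 25.5 and 70.8, a log2 ratio of 1.47 from a Venus signal below the median, which became 0.35, under 1.5-fold, with low signals raised to the array median, and it had -0.15 in its brighter probe set, 235039_x_at. LIN54 had 122 and 169.

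**Figure D5:**
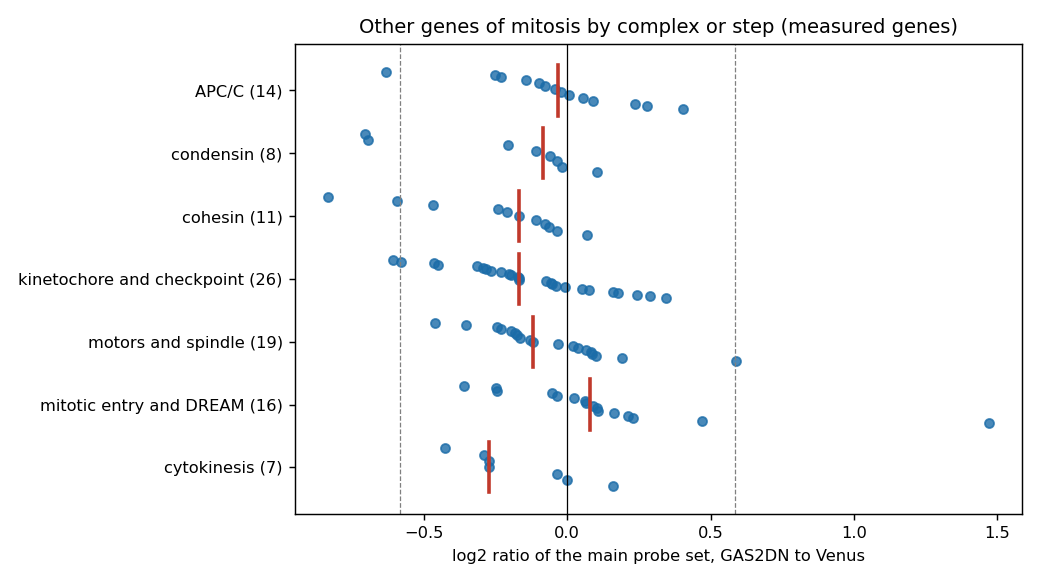
Log2 ratio of GAS2DN to Venus signal of the main probe set of 101 measured mitosis genes outside the 44, by complex or step with the number of genes in brackets, medians as red bars and dashed lines at 1.5-fold. The cytokinesis, cohesin and kinetochore medians lie at -0.27, -0.17 and -0.17, and LIN9 stands alone at 1.47.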

How the data were processed

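Biotin-labelled cRNA of Venus and GAS2DN cells, from a pool of 3 extracts each, was read on 1 array per condition. The authors deposited log2 values of MAS5 signals (version not given in the sources used here), with no detection calls. The 2% trimmed mean of the linear signals was 500.1 on either array. Precision is limited by there being 1 array per condition.

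Of 54675 probe sets 62 were controls, 41091 had 1 annotated gene, 1801 several and 11721 none, and only those with 1 gene were used for genes. Symbols were updated through the gene identifier for 41037. Main probe sets ending in _x_at were used only where a gene had no other. The members, role groups, other mitosis genes, markers and motifs were chosen with earlier results of these data known. Named with both signals were the 2 highest and 2 lowest genes of each role group, genes over 1.5-fold, genes with an eligible probe set over 3-fold, and the 3 highest and 3 lowest other mitosis genes. Further genes were named after their values were seen, some with their signals. Alternatives covered other filters on low signals, scaling by centring, by quantiles or by loess (span 0.2, 3 iterations), other choices of probe set, and low signals raised or offset. Promoter sequences are those of RefSeq (GRCh38.p14). The gene rules were tested on simulated arrays with known changes, all larger than 1.5-fold, placed only in genes bright on both arrays. The simulated noise was the same at every signal level. Smaller changes, and changes in dim genes, were not simulated. Software was matplotlib 3.10.9, statsmodels 0.14.6, scipy 1.17.1, numpy 2.4.6 and pandas 2.3.3 on Python 3.11.15.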

Additional observations from a re-analysis of the deposited data

How the results depend on the processing

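With 1 array per condition no array could be left out, and no paired analysis was possible because each group held 1 sample. Under 11 alternatives the median log2 ratio of the 44 mitosis genes ranged from -0.15 to 0.0016 and the count over 1.5-fold lower from 2 to 3, though not always of the same genes. CCNA2 fell short under loess, quantile normalization and the added array median. By the median over eligible probe sets the 3 were NEK2, PLK4 (-0.66) and ECT2 (-1.72), by the second-brightest probe set the 2 were PLK4 (-0.87) and ECT2 (-3.35), and with names in _s_at and _x_at left out PLK4 stood in place of MAD2L1. Centring moved the median of all measured genes from 0.06 to -0.06. It also moved the count below 0 from 24 to 34 of the 44 mitosis genes and from 66 to 85 of the 101 other mitosis genes. The share of all measured genes below 0 was not counted under centring. With the median over eligible probe sets, and with the second-brightest probe set, 1 gene was over 1.5-fold higher (CCNB2 at 0.94) and 1 over 3-fold (ECT2 at -1.72 and -3.35), where none was as reported. By the second-brightest probe set, which 22 of the 44 have, 12 were below 0, and among other mitosis genes 31 were, because fewer genes have such a probe set. With names in _s_at and _x_at left out, the kinetochore median was -0.25, over the 3 genes left. By the second-brightest probe set, and with those names left out, MAD2L1 had 0.0058 and NCAPH2 1.05. KIF20B had -0.9998 by the median and -2.59 by the second-brightest probe set. The cause was not tested beyond the change of probe set that makes these alternatives. By the second-brightest probe set NEK2 had -0.17 and CCNA2 -0.16. The group medians of cyclins and kinases, between -0.14 and 0.01, of checkpoint genes, between -0.15 and 0.08, of kinesins and spindle, between -0.23 and 0.08, and of cytokinesis and chromosomes, between -0.16 and 0.03, took both signs, as did that of kinetochore genes, between -0.25 and 0.11. So did the medians of condensin genes, between -0.20 and 0.06, of the APC/C, between -0.15 and 0.04, and of mitotic entry and the DREAM complex, between -0.17 and 0.10. LIN9 had 0.35 with low signals raised and 0.79 with the array median added. KIF20B had 0.47, under 1.5-fold, when ratios were centred. Counted per gene rather than per window, an alternative chosen after seeing the data, 83.3% of 36 mitosis genes held a CHR element and 77.8% a CCAAT box, against 27.9% and 39.7% of all genes.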

Other observations

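Of the 89 probe sets of the 44 mitosis genes 9 were not eligible, in 8 genes, since even the brighter signal did not reach the array median. Their log2 ratios ran from -2.09 to 2.87 with a median of 0.07, 4 below and 5 above 0, and 3 of the 9 were over 3-fold. Both extremes belong to genes whose main probe sets were within 1.2-fold: 237241_at of ECT2 went from 21.2 to 4.99 and 215508_at of BUB1 from 5.02 to 36.7. In AURKA, 208080_at went from 36.4 to 8.89, a log2 ratio of -2.03.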
